A study of Mus musculus with 3 samples.

Results

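The collagen gene family was examined in the adult mouse lacrimal gland (LG), the exocrine gland that secretes the watery layer of the tear film. Members were taken by gene symbol alone (Col, a chain type number, a and a chain number), with no use of a measured value. Of 32285 genes in the count tables, 44 symbols matched, and 41 of these had at least 1 unique molecular identifier (UMI, a tag that marks 1 captured transcript) in a barcode called as a cell. Among the 41, 40 were found in the female library and 37 in each male library. The data are single-cell RNA sequencing of 3 libraries made with a 10x Genomics 3′ kit: female replicate 1, male replicate 1 and male replicate 2. Each was a separate pool of 6 glands from 3 C57BL/6J mice aged 2 months, digested with collagenase IV, dispase II and DNase-I and depleted of red and dead cells. The female library was prepared at another core facility and on another day than the male libraries, so sex, facility and day cannot be told apart and no test of sex was made. Values for single libraries are given in the order female replicate 1, male replicate 1, male replicate 2.

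Collagens are extracellular matrix proteins whose chains wind into helical trimers. Types I, III and V form fibrils of connective tissue, type IV forms the sheet-like network of basement membranes under epithelia and around vessels, type VI forms beaded filaments around cells, and FACIT collagens (fibril-associated collagens with interrupted helices) sit on fibril surfaces. Multiplexins carry sugar chains and lie at the basement membrane, and transmembrane collagens anchor cells to it. In a gland, fibroblasts are known as the main source of fibrils, while endothelial, mural and epithelial cells share in making basement membrane.

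After filtering and doublet removal 7652, 5295 and 5397 cells remained, with a median of 3252, 1884 and 1788 UMIs per cell. Between 12 and 18 called barcodes were shared by any pair of libraries. Cells were grouped by clustering without the collagen genes, and groups are called X-like after markers that include no collagen gene. Tear-product transcripts made up 66.5, 83.1 and 85.9% of all UMIs, much of them free RNA outside cells, so levels are given as CPM, UMIs per 1000000 UMIs outside 127 tear-product genes. Free RNA was read from uncalled barcodes of 500 to 1500 UMIs, where collagen transcripts made up 0.0327, 0.0143 and 0.00901% of non-tear UMIs. In uncalled barcodes of 10 to 100 UMIs, the window first planned for free RNA, they made up 0.542, 0.122 and 0.163%, so each statement on free RNA below holds for the window of 500 to 1500 UMIs, which was chosen after seeing the data. The 5 fibroblast markers (*Pdgfra*, *Lum*, *Apod*, *Dcn* and *Gsn*) summed to 45944, 48036 and 43749 CPM in fibroblast-like cells. In mural-like cells they summed to 692, 1097 and 1341 CPM, in myoepithelial (MEC)-like cells to 983, 908 and 831 CPM and in duct-like cells to 465, 471 and 390 CPM. In endothelial-like cells they summed to 46.6, 65.3 and 26.3 CPM.

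Collagen genes held 112180 UMIs in the kept cells, and 61.5% of them came from the 11 fibril-forming members. Network collagens gave 13.3%, beaded-filament collagens 11.3%, multiplexins 5.21%, FACITs 4.40%, transmembrane collagens 3.07% and the anchoring or other group 1.24%. *Col3a1* alone held 24.6%, *Col1a2* 20.3% and *Col1a1* 9.64%. A set of 30 members had at least 100 UMIs. The 10 with fewer were *Col26a1* (80 UMIs), *Col11a1* (29), *Col9a2* (27), *Col20a1* (23), *Col11a2* (15), *Col8a2* (9), *Col24a1* (6), *Col9a1* (5), *Col2a1* (1) and *Col6a4* (1), and no kept cell had a UMI of *Col10a1*, *Col19a1*, *Col22a1* or *Col28a1*. Other genes overlap *Col26a1*, *Col20a1* and *Col24a1* on the same strand, so their few UMIs are uncertain.

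Collagen transcripts were most abundant in fibroblast-like cells, where they made up 1.93, 2.72 and 1.99% of non-tear UMIs. The mean was 2.21% ± 0.436 (SD, n = 3). Mural-like cells, which wrap small vessels, reached 0.253, 0.422 and 0.402%. The MEC-like cells, contractile epithelial cells around the acini, reached 0.248% ± 0.0364, endothelial-like cells 0.188% ± 0.0307 and duct-like cells 0.0999% ± 0.0268 (SD, n = 3). The *Ltf*+ epithelial, myeloid-like, acinar-like and lymphoid-like cells had 0.0120, 0.0101, 0.00960 and 0.00269%, beside a free RNA mean of 0.0187% ± 0.0125. Library by library these classes were below the free RNA, except that in male replicate 2 the *Ltf*+ (0.0107%) and acinar-like cells (0.00912%) stood above its 0.00901%. The 3 libraries of fibroblast-like cells lay above every library of every other class, and those of mural-like and MEC-like cells overlapped. All these values are class totals. Among members with at least 100 UMIs, only *Col14a1*, *Col15a1* and *Col27a1* stood above the free RNA in every library of myeloid-like cells. *Col15a1* was there at 16.6, 6.19 and 7.88 CPM beside 10.7, 3.75 and 0.543 CPM of free RNA. In *Ltf*+ cells only *Col4a5*, *Col9a3*, *Col17a1* and *Col25a1* did so, and in lymphoid-like cells no member did.

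**Figure D1:**
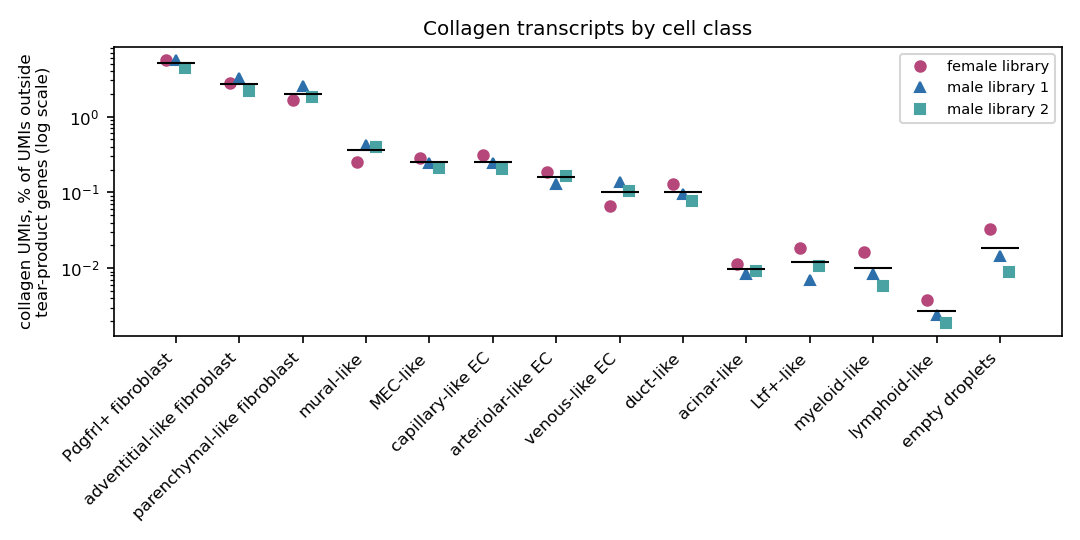
Collagen UMIs as a percent of UMIs outside tear-product genes (log axis) in each cell class, with 1 point per library and the mean of 3 libraries. Fibroblast-like cells are drawn as parenchymal-like, adventitial-like and *Pdgfrl*+ subsets, whose points sit between 1.66 and 5.57%, above all other classes. The acinar-like and immune totals sit near or below the free RNA.

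Detection was compared with each cell thinned to 1000 UMIs in all, tear products included. Cells with fewer UMIs were left out of the thinned shares and kept in the unthinned ones. This left out 53, 122 and 148 fibroblast-like cells and 1, 3 and 39 lymphoid-like cells. At this depth 99.9, 99.8 and 98.8% of fibroblast-like cells held a collagen UMI (unthinned 100, 99.9 and 100%). The shares were 81.1, 65.9 and 62.3% in MEC-like cells (unthinned 96.2, 84.1 and 75.4%), and 80.0, 73.9 and 60.0% in mural-like cells (unthinned 96.0, 91.3 and 65.4%). In endothelial-like cells they were 61.9, 50.9 and 51.7% (unthinned 79.4, 61.0 and 55.1%), and in duct-like cells 55.7, 34.8 and 30.1% (unthinned 93.3, 52.3 and 36.8%). Lymphoid-like cells, which should lack collagen transcripts, had 1.82, 1.43 and 0%, the last being 0 of 71 cells with an exact 95% binomial upper limit of 5.06%. Over all cells of the class, their median depths were 2635, 1479 and 1063 UMIs, against 3117, 1528.5 and 1251 in fibroblast-like cells. These intervals cover counting error only. In thinned myeloid-like cells the share with a collagen UMI was 9.83, 3.84 and 3.09%. A *Col14a1* UMI was found in 5.55, 0.698 and 0.422% of them (unthinned, over all cells, 18.7, 1.24 and 0.624%), highest in the female library.

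The fibril-forming genes set the fibroblast-like cells apart. *Col3a1*, the chain of type III collagen, stood at 5141, 9067 and 6212 CPM there and next highest in mural-like cells, at 356, 1502 and 1564 CPM. *Col1a2* and *Col1a1*, the chains of type I collagen, stood at 4369, 6714 and 5056 CPM and at 2225, 2478 and 1980.5 CPM. Their next highest class was again mural-like, at 192, 375 and 192 CPM for *Col1a2* and at 57.7, 202 and 160 CPM for *Col1a1*. Type V collagen regulates fibril diameter. Its chains were at 364, 436 and 354 CPM (*Col5a1*), 658, 960 and 682 CPM (*Col5a2*) and 346, 410 and 325 CPM (*Col5a3*) in fibroblast-like cells. *Col27a1*, a minor fibrillar chain, was at 160, 90.4 and 95.8 CPM, highest in the female library. For each of these 7 genes no library of another class reached the lowest fibroblast-like library.

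The beaded-filament genes followed the same order. *Col6a1* was at 1019, 1129 and 822 CPM, *Col6a2* at 589, 666 and 537 CPM and *Col6a3* at 855, 1125 and 862 CPM in fibroblast-like cells. In mural-like cells *Col6a1* was at 86.5, 318 and 319 CPM, *Col6a2* at 28.8, 57.8 and 287 CPM and *Col6a3* at 28.8, 116 and 95.8 CPM. The female library was the lowest for all 3, and male replicate 2 stood apart for *Col6a2*. *Col6a5* was at 26.9, 52.2 and 49.4 CPM and *Col6a6* at 67.3, 36.5 and 26.1 CPM in fibroblast-like cells, so the female library was the lowest for the former and the highest for the latter. The levels of *Col6a6* in MEC-like cells, 50.2, 20.5 and 38.0 CPM, overlapped those in fibroblast-like cells.

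The common type IV chains *Col4a1* and *Col4a2*, like *Col18a1*, were above free RNA in every library of 5 classes (fibroblast-like, mural-like, endothelial-like, MEC-like and duct-like). *Col4a1* and *Col4a2* lie head to head on chromosome 8, with *Col4a1* at chr8:11198423-11312826 on the minus strand and *Col4a2* at chr8:11312805-11449287 on the plus strand (GRCm38), so that the gene bodies share 22 bases at their starts. Their promoter windows are shown because these neighbours had the same call in all 10 comparisons below. The windows run from 250 bases before to 50 bases after each annotated start (RefSeq, GRCm38.p6), chr8:11312777-11313076 read on the minus strand and chr8:11312555-11312854 read on the plus strand. They share 78 bases, and the start sites are 21 bases apart. Capitals mark CCAAT and GGGCGG on either strand, 5′ to 3′, and these motifs do not overlap each other here:
Col4a1: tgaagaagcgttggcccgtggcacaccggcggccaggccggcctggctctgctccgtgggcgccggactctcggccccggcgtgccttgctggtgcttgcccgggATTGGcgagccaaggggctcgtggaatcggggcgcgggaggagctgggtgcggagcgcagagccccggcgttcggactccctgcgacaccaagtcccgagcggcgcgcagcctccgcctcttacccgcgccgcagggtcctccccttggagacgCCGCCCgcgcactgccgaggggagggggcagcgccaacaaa
Col4a2: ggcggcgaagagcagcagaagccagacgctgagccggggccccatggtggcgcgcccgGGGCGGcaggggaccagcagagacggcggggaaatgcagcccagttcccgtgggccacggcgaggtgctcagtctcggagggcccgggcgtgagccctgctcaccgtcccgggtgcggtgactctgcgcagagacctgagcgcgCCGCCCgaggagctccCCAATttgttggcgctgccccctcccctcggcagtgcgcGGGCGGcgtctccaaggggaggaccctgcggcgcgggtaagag
The *Col4a1* window held 1 CCAAT and 1 GGGCGG, and the *Col4a2* window 1 CCAAT and 3 GGGCGG. The GGGCGG of the *Col4a1* window and the last of the 3 in the *Col4a2* window are the same site. It lies in the shared bases and is counted in both windows. Of 32851 mouse promoter windows of this length, 37.4% held CCAAT and 35.7% GGGCGG, and of 38 windows of collagen genes 34.2% and 60.5% did. A match is a description of these letters and not a binding site. Promoter windows were at hand for 33 of the 41 members.

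*Col4a1* reached 1038, 1697 and 1240 CPM in fibroblast-like cells, 939, 780 and 522 CPM in endothelial-like cells, 726, 730 and 665 CPM in MEC-like cells and 663, 635 and 319 CPM in mural-like cells. Fibroblast-like cells were highest in each library, and endothelial-like cells overlapped with both MEC-like and mural-like cells. *Col4a2* stood at 493, 739 and 470 CPM in fibroblast-like and at 630, 532 and 377 CPM in endothelial-like cells, and these overlapped, with the female endothelial-like value above the female fibroblast-like one. The remaining type IV chains build more specialised networks. *Col4a5* (252, 147 and 133 CPM) and *Col4a6* (134, 64.8 and 95 CPM) were highest in MEC-like cells, without overlap with the next class. *Col4a3* (33.9, 17.4 and 8.71 CPM) and *Col4a4* (44.0, 48.7 and 40.7 CPM) were highest in fibroblast-like cells and overlapped with MEC-like cells. *Col8a1*, a chain of the short-chain type VIII network, was highest in duct-like cells at 70.6, 54.6 and 27.9 CPM. It overlapped there with endothelial-like cells, at 32.2, 15.5 and 4.38 CPM.

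The transcripts of the 2 common type IV chains stood in different ratios in different classes. In fibroblast-like cells there were 2.10, 2.30 and 2.64 *Col4a1* UMIs per *Col4a2* UMI, and in MEC-like cells 2.70, 2.49 and 2.50. In endothelial-like cells the ratio was 1.49, 1.47 and 1.38. Its mean of 1.45 ± 0.0562 (SD, n = 3) stood beside 2.35 ± 0.270 in fibroblast-like and 2.56 ± 0.118 in MEC-like cells. All endothelial-like libraries were below all libraries of these 2 classes. Among endothelial-like subsets the ratio was 1.38, 1.49 and 1.29 in capillary-like cells and 2.08, 1.52 and 1.67 in venous-like cells. The female venous-like value thus stood close to the female fibroblast-like one, and the venous-like ratios rest on as few as 15 *Col4a2* UMIs. With 3 libraries per class an exact test cannot pass 0.05, so none is given.

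**Figure D2:**
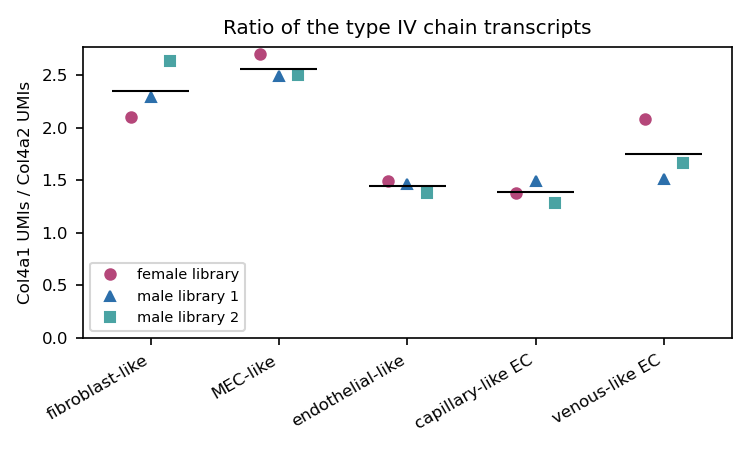
Ratio of *Col4a1* to *Col4a2* UMIs by cell class, with 1 point per library. Endothelial-like cells sit between 1.38 and 1.49, below the fibroblast-like (2.10 to 2.64) and MEC-like cells (2.49 to 2.70). Of their subsets, capillary-like cells sit between 1.29 and 1.49 and venous-like cells between 1.52 and 2.08.

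The FACIT, multiplexin, transmembrane and anchoring members divided among the classes. In fibroblast-like cells *Col14a1*, a FACIT that binds fibrils, was at 531, 197 and 189 CPM. It was at 399, 229 and 152 CPM in MEC-like cells, so both classes overlapped and the female library was highest in both. The fibril-associated chains, *Col12a1* (104, 137 and 105 CPM) and *Col16a1* (76.1, 92.2 and 61.0 CPM), led in fibroblast-like cells with no overlap with MEC-like cells. The FACIT chain *Col9a3* led in duct-like cells at 64.5, 39.0 and 39.0 CPM and had no UMI in fibroblast-like cells.

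Among multiplexins *Col15a1* led in fibroblast-like cells at 902, 722 and 517 CPM. *Col18a1*, whose C-terminal fragment is endostatin, stood at 240, 260 and 160 CPM in mural-like and at 137, 256 and 197 CPM in fibroblast-like cells, which overlapped. The ratio of *Col15a1* to *Col18a1* in fibroblast-like cells was 6.58 in the female library and 2.82 and 2.62 in the male libraries.

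*Col13a1*, a transmembrane collagen of cell adhesions, was found mainly in endothelial-like cells, at 304, 233 and 197 CPM. Its next class, fibroblast-like cells, averaged 14.9 CPM. *Col17a1*, the hemidesmosome collagen of basal epithelial cells, was shared by duct-like cells (503, 273 and 240 CPM) and MEC-like cells (343, 317 and 223 CPM), which overlapped. *Col23a1* led in MEC-like cells at 109, 106 and 76.0 CPM. *Col25a1* led in duct-like cells at 36.8, 15.6 and 11.2 CPM and overlapped with *Ltf*+ cells, at 14.5, 5.98 and 8.59 CPM. *Col7a1*, which forms the anchoring fibrils under epithelia, was at 138, 88.7 and 119 CPM in MEC-like and at 142, 105 and 89.2 CPM in duct-like cells, which overlapped. It was also the sole member of the 30 above free RNA in every library of acinar-like cells, the tear-secreting cells, at 49.5, 58.4 and 62.9 CPM beside 20.5, 13.8 and 21.7 CPM of free RNA.

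**Figure D3:**
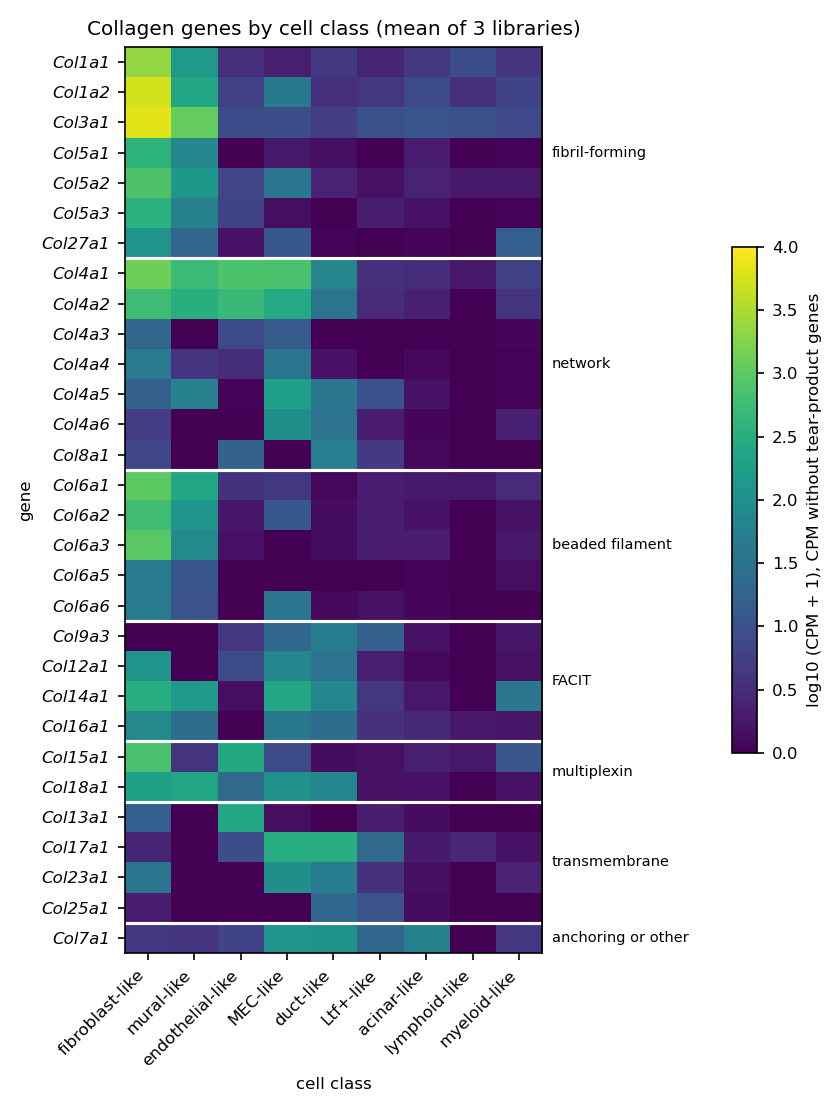
Mean CPM over 3 libraries of the 30 collagen genes with at least 100 UMIs (rows, ordered by family) in each cell class (columns). Fibril-forming and type VI genes fill the fibroblast-like column, *Col13a1* the endothelial-like column, and *Col17a1*, *Col7a1*, *Col4a5* and *Col4a6* the epithelial columns.

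Each class was then compared with other cells, with UMIs summed per library and arm and tested with edgeR's quasi-likelihood test with the library as a block. P-values were adjusted by Benjamini-Hochberg over all genes tested, and a gene was called at an adjusted p under 0.05. They measure the difference between the arms against its spread over these 3 libraries, after differences between whole libraries are taken out by the block. The test moderates the spread of each gene towards that of the other genes. A very small p-value therefore does not rest on the 3 libraries of that gene alone. The arms share cells between comparisons, so calls are given comparison by comparison. The members tested are those that passed the filter on low counts, which a member can pass through the class where it is high. How often the arms overlapped was not counted over all genes, so a lack of overlap describes the named members only.

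Most collagen genes were higher in fibroblast-like cells than in all other cells. Of 31 members tested 24 were higher and 4 lower, beside 18.1% of all tested genes higher and 23% lower. The 24 include *Col26a1*, with 77, 1 and 1 of its 80 UMIs in fibroblast-like cells, and *Col11a1*, with 29 UMIs in all. Members this sparse can pass the filter through the fibroblast-like arm alone, and the count was not made without them. The median log2 fold change of the members was 4.16 and that of all genes −0.13. The largest differences were in *Col6a3* (855, 1125 and 862 CPM against 1.63, 1.39 and 1.28 CPM; log2 fold change 9.22 ± 0.27 SE, edgeR adjusted p = 5.9e-08) and in *Col1a2* (4369, 6714 and 5056 CPM against 8.71, 12.1 and 8.23 CPM; 9.04 ± 0.21). *Col1a1* was 8.93 ± 0.24 higher on the log2 scale. For all 3 the lowest fibroblast-like library stood far above the highest library of the other cells. *Col9a3* was at least 17.7-fold lower, counted against a floor of 3 UMIs over the group. The epithelial collagens *Col17a1* (1.81, 0 and 2.90 CPM against 124, 29.8 and 18.1 CPM) and *Col7a1* (2.33, 1.74 and 5.81 CPM against 49.3, 48.3 and 53.4 CPM) were lower with no overlap. *Col4a6*, also lower, was not called without the female library (log2 fold change −0.19). *Col4a5*, *Col13a1* and *Col8a1* were not called.

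Genes for making and remodelling collagen stood with them. Of 41 tested genes of a list for synthesis and turnover 31 were higher and 4 lower. By role, 12 of 16 genes for chain modification and folding, 9 of 11 for trimming and cross-linking, 3 of 6 for receptors and 7 of 8 for proteases and their inhibitors were higher. *Mmp3*, a matrix protease, had a log2 fold change of 9.42 ± 0.31 and *Pcolce2*, an enhancer of procollagen trimming, of 9.27 ± 0.33. *Lair1*, a collagen receptor of leukocytes, had no UMI in fibroblast-like cells.

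Mural-like cells carried few differences from the sum of all other cells, which included fibroblast-like cells. Of 27 members tested 1 was higher and 5 lower, beside 4.51% higher and 9.85% lower among all genes. The members' median log2 fold change was −0.51, or −0.12 with genes absent from 1 arm at their bound, against −0.66 for all genes. *Col18a1* was higher at 240, 260 and 160 CPM against 47.2, 33.1 and 18.2 CPM, with no overlap (2.23 ± 0.49, edgeR adjusted p = 9.7e-05). Without the female library its fold change was 2.38 and it was not called. *Col17a1*, with no mural-like UMI, was at least 3.91-fold lower. *Col15a1* was lower, at 9.61, 0 and 0 CPM against 207, 84.0 and 45.7 CPM (−5.01 ± 0.98), as was *Col7a1* (−3.34 ± 1.14). *Col1a2* (−1.87 ± 0.37) and *Col1a1* were lower with overlapping arms. Without the female library only *Col1a2* was still called lower, the call of *Col7a1* was lost whichever library was left out, and 3 members were lower without the library block. With total UMIs as the scale *Col1a1* changed sign. There were 50, 46 and 52 mural-like cells, in which 1 UMI was worth 9.61, 28.9 and 31.9 CPM. Of the 36 synthesis and turnover genes tested, 3 were higher and 6 lower, with *Lox*, a cross-linking enzyme, at 2.63 ± 0.71.

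Set directly against fibroblast-like cells, mural-like cells had lower levels of 15 of 18 members tested and higher levels of 0 by edgeR (all genes: 11.7% higher, 15.9% lower). DESeq2 called 0 higher too, and 1 member, *Col4a5*, was higher at an unadjusted p under 0.05. The median log2 fold change was −2.60 (−2.59 at bounds), against −0.10 for all genes. *Col12a1* had no mural-like UMI and was at least 6.11-fold lower. *Col15a1* was lower by the largest fitted difference, at 9.61, 0 and 0 CPM against 902, 722 and 517 CPM (−7.12 ± 0.56, edgeR adjusted p = 5.2e-10). *Col1a2* (−4.54 ± 0.23) and *Col1a1* (−4.41 ± 0.30) followed. *Col18a1*, *Col16a1* and *Col4a5* were not called. *Col14a1* was called lower at 38.4, 57.8 and 319 CPM against 531, 197 and 189 CPM, but male replicate 2 went the other way and the call was lost without the female library or without male replicate 1. *Col4a1* and *Col4a2* lost their calls without male replicate 1, and *Col27a1* without the female library. Among 31 synthesis and turnover genes 1 was higher, *Itga1*, an integrin collagen receptor, and 24 were lower.

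Set against endothelial-like cells, their partners in the vessel wall, mural-like cells had 6 of 10 members higher and 4 lower (all genes: 14.9% higher, 20.8% lower). The median was 4.03 against −0.13 for all genes. *Col3a1* was higher at 356, 1502 and 1564 CPM against 6.91, 12.4 and 4.38 CPM (6.35 ± 0.35, edgeR adjusted p = 3.6e-13). *Col6a1* (6.02 ± 0.61), *Col1a2* (5.58 ± 0.53), *Col1a1*, *Col5a2* and *Col18a1* were higher as well, each without overlap. *Col13a1* had no mural-like UMI and was at least 16.1-fold lower, and *Col15a1* was lower by 5.24 ± 0.71 on the log2 scale. *Col4a1* (−0.58 ± 0.23, adjusted p = 0.047) and *Col4a2* (−0.77 ± 0.27, adjusted p = 0.026) were called lower with overlapping arms. *Col4a1* lost its call whichever library was left out, and *Col4a2* without the female library or without male replicate 1, and 2 members were lower without the library block. The fibroblast markers were also higher in mural-like than in endothelial-like cells, 692 to 1341 CPM against 26.3 to 65.3 CPM, with 4 of the 5 at 0 in mural-like cells of male replicate 1, and their part in the fibrillar collagens of mural-like cells was not tested. Of 11 synthesis and turnover genes tested 4 were higher and 1 lower, led by *Ctsk*, the collagen-degrading cathepsin K, at 4.88 ± 0.81.

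Endothelial-like cells had lower levels of most members tested and higher levels of *Col13a1* and the common type IV chains. Against all other cells 5 of 27 members were higher and 19 lower, beside 15.8% higher and 23.8% lower among all genes. The median was −4.56 (−3.71 at bounds) against −0.15 for all genes. *Col13a1* was higher at 304, 233 and 197 CPM against 1.96, 2.49 and 0.895 CPM (7.01 ± 0.30, edgeR adjusted p = 4.8e-12). *Col4a2* (2.49 ± 0.21) and *Col4a1* (1.83 ± 0.18) were higher without overlap. *Col8a1* was called at 1.39 ± 0.44 with overlap, a call lost without male replicate 1. *Col5a1* had no endothelial-like UMI and was at least 48.5-fold lower. The type IV chain *Col4a5* was lower at 0.576, 0 and 0 CPM against 31.8, 10.6 and 7.34 CPM (−5.93 ± 0.78), and *Col4a3* and *Col4a4* were not called. *Col16a1*, *Col23a1* and *Col4a6* had no UMI and were at least 15.0-fold, 13.1-fold and 8.13-fold lower. *Col1a2* was at 2.88, 12.4 and 0 CPM against 1011, 652 and 320 CPM (−7.73 ± 0.40). The calls of *Col12a1*, *Col17a1*, *Col9a3* and *Col4a6* were lost without the female library.

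*Col15a1* behaved differently between libraries in this comparison. It stood at 148, 311 and 338 CPM in endothelial-like cells and at 212, 71.4 and 33.5 CPM in the other cells, so it was lower in the female and higher in both male libraries. The fitted log2 fold change was 1.48 ± 0.47 (edgeR adjusted p = 0.019), and 0.62 with no call without male replicate 2. Without the library block it was not called either, and 3 members were higher in place of 5. Fibroblast-like cells, where *Col15a1* was highest, made up 25.3, 14.8 and 9.59% of the other cells. Of 40 synthesis and turnover genes tested 7 were higher and 22 lower, among them *Itga1*, which was 3.36 ± 0.23 higher.

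Capillary-like and venous-like endothelial cells (EC) differed in 3 of the collagens called higher in endothelial-like than in all other cells. Subclusters of 345 and 102 endothelial-like cells got no subset name. They entered neither arm here but stayed in all endothelial-like values. The leading genes of the smaller one included *Prom2*, an acinar marker. Only 4 members passed the filter, of which 3 were lower in venous-like EC and 0 higher by edgeR (all genes: 13.4% higher, 9.73% lower). Of these 4, DESeq2 also called 0 higher, and 0 were higher at an unadjusted p under 0.05. Members that did not pass the filter could not be called. Among them *Col18a1* was at 12.7, 46.6 and 41.7 CPM in venous-like and at 2.57, 7.01 and 12.3 CPM in capillary-like EC. These rest on 5, 4 and 3 against 2, 1 and 1 UMIs. *Col4a3* went the other way, with no venous-like UMI and 22, 1 and 0 UMIs in capillary-like EC. The median of the 4 was −1.39 against −0.03 for all genes. *Col13a1* was at 40.5, 58.3 and 27.8 CPM in venous-like and at 553, 407 and 332 CPM in capillary-like EC (−3.32 ± 0.30, edgeR adjusted p = 3.3e-09). *Col4a2* was at 155, 362 and 209 CPM against 942, 638 and 553 CPM (−1.58 ± 0.28), and *Col4a1* at 322, 548 and 348 CPM against 1301, 954 and 713 CPM (−1.19 ± 0.24). No venous-like library reached the lowest capillary-like library for these 3 genes. *Col15a1*, at 98.8, 303 and 403 CPM against 187, 344 and 344 CPM, was not called (adjusted p = 0.63). In cells of at least 1000 UMIs, thinned to 1000, a *Col13a1* UMI was found in 29.7, 14.1 and 15.6% of capillary-like EC. In venous-like EC the share was 1.08, 2.65 and 2.25%. Unthinned, over all cells, the shares were 51.3, 20.3 and 16.1% in capillary-like and 7.44, 4.13 and 1.89% in venous-like EC. In thinned myeloid-like cells a *Col13a1* UMI was found in none of 1496, 860 and 711 cells, with upper limits of 0.246, 0.428 and 0.517%. Median depths over all cells were 3556, 1750 and 1419 UMIs in myeloid-like cells against 2569, 1363 and 1089 in capillary-like EC. Of 8 synthesis and turnover genes tested *Timp2*, a metalloprotease inhibitor, was higher (2.75 ± 0.28), and *Itga1* (−1.30 ± 0.26) and *Timp3* (−1.16 ± 0.22) were lower.

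**Figure D4:**
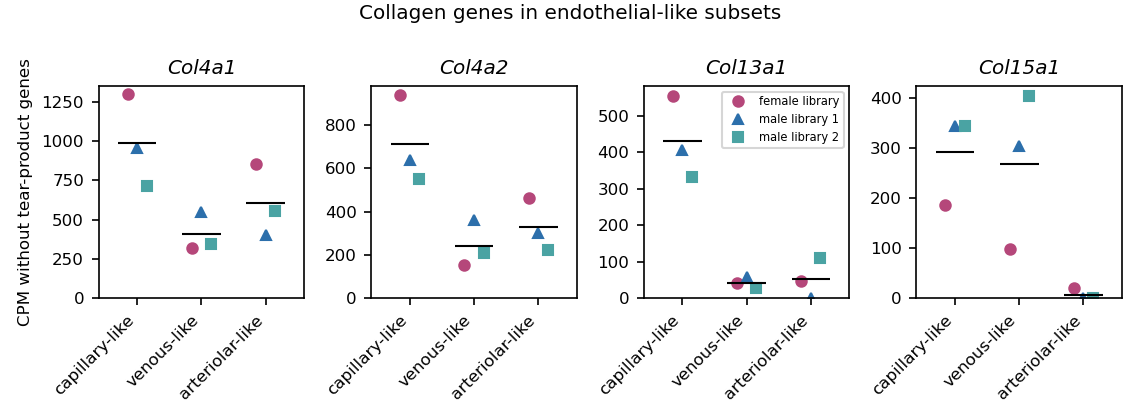
CPM of collagen genes in capillary-like, venous-like and arteriolar-like EC, with 1 point per library and axes that start at 0. *Col13a1*, *Col4a1* and *Col4a2* are higher in every capillary-like library than in any venous-like library, and *Col15a1* overlaps.

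Within the epithelium MEC-like cells had higher levels of most members tested. Against other epithelial cells 18 of 23 members tested were higher and 0 lower by edgeR, beside 14.2% higher and 16.2% lower among all genes. DESeq2 also called 0 lower, and 0 were lower at an unadjusted p under 0.05. Both counts rest on the same filter on low counts, and with no filter some members were called lower. The median of the members tested was 3.74 against −0.08. *Col9a2*, a FACIT chain at 21.5, 17.1 and 14.3 CPM, and *Col4a3*, at 14.3, 10.2 and 14.3 CPM, had no UMI in the other epithelial cells and were at least 90.4-fold and 62.6-fold higher. *Col6a6* was at 50.2, 20.5 and 38.0 CPM against 0.470, 0.254 and 0 CPM (6.67 ± 0.67, edgeR adjusted p = 0.00028), and *Col4a4* at 41.9, 30.7 and 28.5 CPM against 0.941, 0 and 0.274 CPM (5.94 ± 0.69). All 6 type IV chains were higher, with *Col4a1* at 726, 730 and 665 CPM against 31.2, 6.60 and 5.20 CPM (5.75 ± 0.49).

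The fibrillar *Col3a1* was not called in MEC-like cells, at 3.59, 6.83 and 14.3 CPM against 10.7, 8.88 and 7.66 CPM, while *Col1a2* was higher at 35.9, 64.8 and 19 CPM against 6.58, 2.79 and 6.29 CPM. Free RNA averaged 48.1 CPM for *Col3a1* and 27 CPM for *Col1a2*. *Col17a1* was higher with overlap, since the other epithelial cells of the female library stood at 238 CPM and those of the male libraries at 18.5 and 13.7 CPM, and its call was lost without either male library. The call of *Col6a2* was lost without male replicate 1. Of 29 synthesis and turnover genes 15 were higher and 3 lower, led by the integrin *Itga2* (5.47 ± 1.03), *Loxl1* (5.25 ± 0.73), a cross-linking enzyme, and *Adamts2* (4.65 ± 0.83), a procollagen protease.

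Duct-like cells shared part of this set. Against other epithelial cells 9 of 18 members were higher and 2 lower (all genes: 16.4% higher, 20.4% lower), with a median of 0.96 against −0.03. *Col8a1* was higher at 70.6, 54.6 and 27.9 CPM against 1.63, 0 and 0.542 CPM (5.83 ± 0.54, edgeR adjusted p = 1.8e-06). *Col25a1* (3.46 ± 0.48) was higher, and *Col17a1* stood at 503, 273 and 240 CPM against 76.6, 24.2 and 14.6 CPM (3.10 ± 0.23). None of the 9 members called higher overlapped between the arms. *Col5a2* (0.682, 3.90 and 0 CPM against 7.94, 4.78 and 1.63 CPM; −3.00 ± 0.85) and *Col1a2* were lower, and these calls did not hold with total UMIs as the scale or in DESeq2. The call of *Col12a1* was lost without either male library, that of *Col16a1* without male replicate 1 and that of *Col1a2* without the female library, and without the library block 1 member was lower. Of 24 synthesis and turnover genes 11 were higher and 5 lower, with *Loxl4* (4.65 ± 0.71) and *Timp3* (4.19 ± 0.26) higher and *Itga1* (−3.22 ± 0.44) lower.

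Fibroblast-like cells were split by their markers into parenchymal-like cells of the gland lobules (1472, 633 and 398 cells), adventitial-like cells (157, 54 and 62) and *Pdgfrl*+ cells (56, 27 and 23). Collagen made up 5.57, 5.56 and 4.41% of non-tear UMIs in *Pdgfrl*+ cells, 2.74, 3.20 and 2.19% in adventitial-like cells and 1.66, 2.53 and 1.80% in parenchymal-like cells. All *Pdgfrl*+ libraries were above all others, and the other 2 subsets overlapped. Both tests below used the same parenchymal-like cells, so their results are not independent of each other.

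Adventitial-like cells differed from parenchymal-like cells in both directions, with 4 of 7 fibril-forming members higher and 1, *Col27a1*, lower. Of 20 members tested 4 were higher and 6 lower, beside 7.76% higher and 8.1% lower among all genes, and the median was 0.12 against −0.05. *Col15a1* was lower at 86.9, 91.4 and 20.1 CPM against 1034, 793 and 607 CPM (−3.54 ± 0.26, edgeR adjusted p = 4.4e-10). *Col12a1* (−3.49 ± 0.43), *Col27a1* (−2.35 ± 0.34), *Col18a1* (−2.03 ± 0.30), *Col4a2* and *Col4a1* were lower too, each without overlap. *Col3a1* was higher at 11084, 15055 and 9908 CPM against 3773, 8085 and 5121 CPM (1.13 ± 0.17, adjusted p = 1.6e-05), and *Col1a1* at 3717, 3124 and 2774 CPM against 1654, 2045 and 1455 CPM (0.91 ± 0.17). *Col5a1* was higher without overlap and *Col1a2* with overlap. Without the female library *Col3a1* was still called higher and *Col15a1* and *Col4a1* lower, and the other 7 calls were lost. *Col1a2* lost its call whichever library was left out, and without the library block 0 members were called higher.

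The synthesis and turnover genes differed in both directions, with 8 higher and 6 lower of 33 in adventitial-like cells. *Pcolce2* was higher by 4.24 ± 0.22 and *Itga11*, an integrin for fibrillar collagen, by 3.84 ± 0.34, while *Plod1*, a lysyl hydroxylase, was lower (−2.21 ± 0.35).

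Both type I chains were higher in *Pdgfrl*+ cells. Of 18 members tested 7 were higher and 5 lower than in parenchymal-like cells, beside 4.38% higher and 5.54% lower among all genes, and the median was 0.46 against −0.08. *Col1a1* was at 10773, 10623 and 7965 CPM against 1654, 2045 and 1455 CPM (2.44 ± 0.20, edgeR adjusted p = 9.7e-31). *Col14a1* was at 1208, 859 and 1356 CPM against 483, 175 and 112 CPM (2.09 ± 0.26). *Col1a2* (1.87 ± 0.20), *Col3a1* (1.44 ± 0.20), *Col5a2*, *Col6a1* and *Col6a2* were higher too, and none of the 7 overlapped. *Col27a1* (29.6, 0 and 0 CPM against 184, 102 and 119 CPM; −2.83 ± 0.63), *Col18a1* (−2.15 ± 0.50), *Col5a3*, *Col4a1* and *Col4a2* were lower without overlap. *Col15a1*, at 578, 678 and 508 CPM against 1034, 793 and 607 CPM, was not called.

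The balance of fibrillar chains differed as well. In *Pdgfrl*+ cells there were 1.61, 1.54 and 1.62 *Col3a1* UMIs per *Col1a1* UMI, beside 2.28, 3.95 and 3.52 in parenchymal-like and 2.98, 4.82 and 3.57 in adventitial-like cells. All *Pdgfrl*+ ratios were below all others. *Lox* led the synthesis list in *Pdgfrl*+ cells, where 6 of 30 genes were higher and 2 lower, with a log2 fold change of 3.63 ± 0.33. *Mmp3* was lower (−2.08 ± 0.25) and *Adamts2* higher (1.96 ± 0.30). With 23 to 56 *Pdgfrl*+ cells per library, the calls of *Col5a2* and *Col6a2* were lost whichever library was left out, and those of *Col6a1* and *Col4a2* without either male library. The calls of *Col18a1* and *Col27a1* were lost without the female library, and without the library block 3 members were higher.

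**Figure D5:**
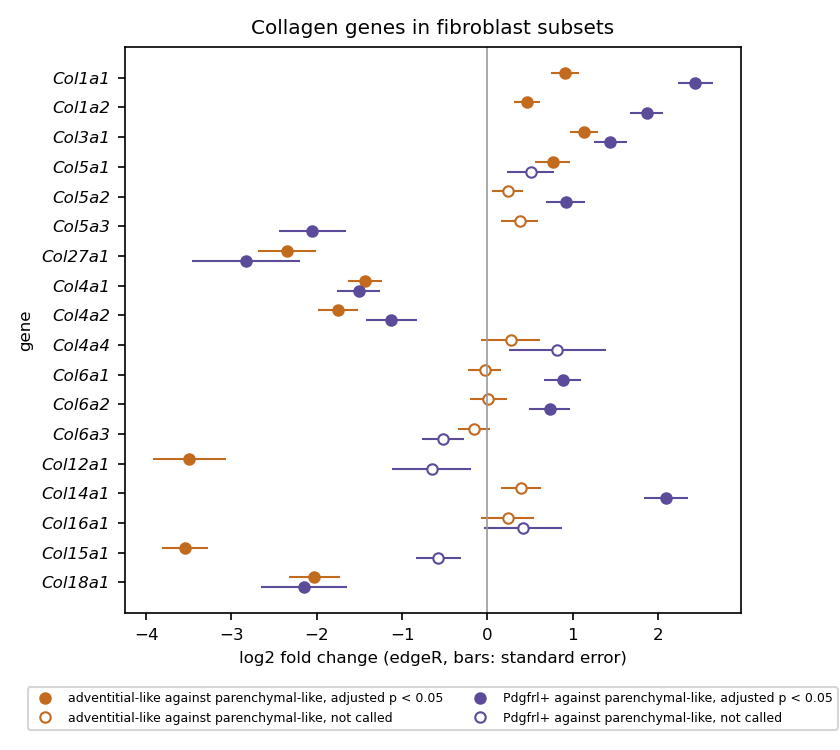
Log2 fold changes with standard errors of collagen genes in adventitial-like and *Pdgfrl*+ cells against parenchymal-like fibroblasts, filled where called. Type I and III genes lie above 0 in both subsets and *Col4a1*, *Col4a2*, *Col18a1* and *Col27a1* below 0, with *Col15a1* and *Col12a1* called in adventitial-like cells.

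Calls of other neighbouring collagen genes were set side by side, counting both higher, both lower and neither called as the same call. *Col4a4* and *Col4a3*, 71 bases apart on chromosome 1 and on opposite strands, had the same call in 3 of 3 comparisons that tested both, of which 1 was called for neither. *Col4a6* and *Col4a5*, 1308 bases apart on the X chromosome, did in 4 of 5, of which 2 were called for neither, the exception being fibroblast-like cells against all others. *Col6a2* and *Col6a1* had the same call in 6 of 7 comparisons, 2 of them called for neither, and *Col3a1* and *Col5a2* in 6 of 9, 1 of them called for neither. The neighbours *Col4a1* and *Col4a2* were both higher in 3 comparisons, both lower in 5 and not called in 2. Comparisons share cells, and pairs that are not neighbours were not counted, so these counts are descriptions.

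Between libraries, fibroblast-like cells of the female library stood outside both male libraries for several members. *Col14a1* was at 531 CPM in the female library against 197 and 189 CPM, *Col27a1* at 160 CPM against 90.4 and 95.8 CPM, and *Col6a6* at 67.3 CPM against 36.5 and 26.1 CPM. *Col3a1* was lower, at 5141 CPM against 9067 and 6212 CPM. These genes were picked after their values were seen, and with 1 female library the differences cannot be set against a spread between female pools.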

How the data were processed

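The authors deposited whole-number UMI counts (genes by barcodes) from Cell Ranger 6.1.2 on mm10, as the submitters' processing notes name them, and not their later matrices corrected for free RNA. The header of the full barcode set names Cell Ranger 4, and the annotation release is not given in the sources used here. Called barcodes were kept above 500 UMIs and 200 genes if mitochondrial genes gave less than 15% of UMIs, and 646, 287 and 315 doublets were removed with the scrublet function of scanpy 1.11.5 at 0.8% per 1000 barcodes. The kept cells held 55390678, 37641576 and 41269825 UMIs.

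Cells were integrated and clustered (sctransform 0.4.2, Seurat 5.3.0, R 4.3.3, 3000 features, 30 dimensions, resolution 1, and 0.6 within endothelial-like cells) with 346 features left out, among them the collagen and the synthesis and turnover genes. Clusters were named from marker lists by a score rule set after the clusters were seen. Clusters of 986, 569 and 1114 cells stayed unnamed and entered the arms of other cells. Summed counts were tested with edgeR 4.0.16 (TMM, filterByExpr, library as a block, glmQLFTest), and DESeq2 1.42.0 was an alternative. The test was tested on simulated data with known changes. Free RNA was first read from barcodes of 10 to 100 UMIs, and barcodes of 500 to 1500 UMIs, the peak of empty droplets, were chosen after seeing the data. Gene coordinates come from GENCODE vM21 (GRCm38).

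Both arms of each test come from the same 3 libraries, which pairs them by library, and the block is therefore in the model. The members and lists were chosen with earlier results of these data known. Members with at least 100 UMIs are named with their level in the class where they are highest, up to 4 called members per comparison carry a fold change, and those beyond this rule were chosen after their values were seen.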

Additional observations from a re-analysis of the deposited data

Results flagged for a closer look

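Collagen transcripts appeared in data that no comparison used. In uncalled barcodes from 100 to fewer than 500 UMIs, which lie below the peak of empty droplets, collagen stood at 4850 CPM in the female library (1147 barcodes), 5735 CPM in male replicate 1 (2520 barcodes) and 2710 CPM in male replicate 2 (4110 barcodes). In the empty droplets of 500 to 1500 UMIs it stood at 327, 143 and 90.1 CPM.

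*Col15a1* in endothelial-like against all other cells went in opposite directions, with a log2 ratio of CPM of −0.52 in the female library and of 2.12 and 3.33 in the male libraries. The difference between the female and male libraries was not tested.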

How the results depend on the processing

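Of 2554 fold changes of named members recomputed under alternatives, 2357 kept their side of the threshold and, where called, their direction. Of the rest 152 lost a call, 38 gained a call and 7 changed sign with a call in the main or the alternative run. A change of sign between runs that both lacked a call was counted as kept. All 7 came from total UMIs as the scale, which shifted the median log2 fold change of all genes by 1.57 for fibroblast-like, 1.54 for mural-like and 1.29 for endothelial-like cells against all others, by 2.24 for MEC-like and 2.34 for duct-like cells, by −0.18 for mural-like against fibroblast-like cells and by −0.25 for venous-like EC. RLE size factors shifted it by 0.17 for mural-like cells. Under total UMIs *Col3a1* stood at 1.71 and *Col1a1* at 0.09 in mural-like cells. In duct-like cells *Col3a1* was at 1.32, *Col1a2* at 0.29, *Col1a1* at 2.25, *Col4a1* at 1.85 and *Col4a2* at 2.20.

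The counts of called members changed as follows, and the cause was not tested. For mural-like against other cells, 3 members were higher with RLE and 8 with total UMIs, and 0 to 1 with a library left out. There 2 were lower with total UMIs, 3 with DESeq2, 3 without the replicate block and 1 to 5 with a library left out. For endothelial-like cells 3 were higher without the replicate block and 3 with free RNA of 10 to 100 UMIs subtracted. For MEC-like cells 2 were lower with no filter. For duct-like cells 16 were higher with total UMIs, and 0 were lower with total UMIs, 0 with DESeq2, 8 with no filter, 1 without the replicate block and 0 to 4 with a library left out. For mural-like against endothelial-like cells 12 were higher with no filter, 3 with free RNA of 10 to 100 UMIs subtracted and 3 with cells classed one by one. There 2 were lower with total UMIs, DESeq2, no replicate block, either subtraction of free RNA, a mitochondrial share under 5% or 2 times the doublets removed, and 2 to 3 with a library left out. For adventitial-like cells 2 were higher with DESeq2, no filter, either subtraction or no integration, 0 without the replicate block and 1 to 3 with a library left out, and 2 to 7 were lower with a library left out. For *Pdgfrl*+ cells 3 were higher without the replicate block and 3 lower with 2 times the doublets removed. Fibroblast-like against other cells, mural-like against fibroblast-like cells and venous-like EC kept their counts within 1.5 times in every alternative run.

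With all UMIs in the totals collagen made up 1.23% in fibroblast-like, 0.161% in mural-like, 0.0918% in endothelial-like, 0.142% in MEC-like, 0.0550% in duct-like, 0.00347% in *Ltf*+, 0.00094% in acinar-like and 0.0013% in lymphoid-like cells. In cells of more than 1500 UMIs it made up 0.243% in mural-like and 0.00421% in lymphoid-like cells. Without thinning a collagen UMI was found in 84.2% of mural-like, 65.2% of endothelial-like, 85.2% of MEC-like, 60.8% of duct-like, 17.9% of *Ltf*+, 20.4% of acinar-like, 2.87% of lymphoid-like and 13.9% of myeloid-like cells.

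The tests were paired by library through the replicate block. Female and male libraries were not compared. Subtracting free RNA was not run for the comparisons of MEC-like and duct-like cells, since it was scaled on tear products and the acinar-like and *Ltf*+ cells in their other arm make these, and clustering without integration gave no *Pdgfrl*+ subset. Few cells limit the precision of the mural-like and *Pdgfrl*+ values, with 46 to 52 and 23 to 56 cells per library.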

Other observations

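Arteriolar-like EC (106, 19 and 21 cells), which entered no test, held collagen at 0.162% ± 0.0287 of non-tear UMIs (SD, n = 3). *Col18a1* stood there at 125, 101 and 443 CPM, from 19, 1 and 4 UMIs, beside 2.57, 7.01 and 12.3 CPM in capillary-like EC. *Col13a1* stood at 46.1, 0 and 111 CPM, from 7, 0 and 1 UMIs.

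Parenchymal-like fibroblasts formed a cluster with *Fgf10*, a growth factor for glandular epithelium, and a cluster with *Penk*. *Col12a1* was at 139, 221 and 174 CPM in the *Fgf10* cluster and at 85.8, 92.3 and 79.8 CPM in the *Penk* cluster, without overlap. *Col3a1* was at 3107, 6688 and 4755 CPM against 4785, 9482 and 5430 CPM, lower in the *Fgf10* cluster of each library but with overlap. No test was planned between these clusters, and none was made.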
